A study of Mus musculus with 12 samples.

Results

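The m6A peaks of differentiated mouse keratinocytes comprised 18423 regions, which is every row of the list that the authors made by setting immunoprecipitated (IP) RNA of day 4 against input RNA of day 4. A list of the same form for day 0 held 19920 regions, so the day 4 peaks were 18423 of 38343 in all. The cells were primary keratinocytes from the epidermis of newborn mice, kept on 3T3 feeder fibroblasts stopped with mitomycin C until passage 3, in E-media with 15% serum and 0.05 mM calcium. All groups shared this culture, and no genetic change is given in the labels. Day 4 cells were differentiated by a calcium shift and gave 3 IP and 3 input libraries, and undifferentiated day 0 cells gave 3 IP and 3 input libraries. Polyadenylated RNA was sheared by sonication, and N6-methyladenosine was pulled down with the EpiMark antibody kit. Whether a replicate was its own animal or culture is not stated, and the labels do not say that feeder cells were removed before lysis.

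N6-methyladenosine (m6A) is the most common internal modification of mammalian mRNA. A complex of METTL3 and METTL14 with WTAP, VIRMA, ZC3H13 and RBM15 proteins writes it at short motifs of which GGAC is the core, FTO and ALKBH5 can remove it, and YTH-domain proteins read it. It is known to gather around stop codons, in 3′ untranslated regions and in long internal exons, and it affects the decay, splicing and translation of the RNA that carries it. The antibody also binds a related dimethylated adenosine next to the mRNA cap, so a peak over a start site can come from either mark.

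Because each day has a single list pooled from its libraries, no peak had a value per library, depth was unknown and no peak could be tested across replicates. Each peak carries the authors' own enrichment score and unadjusted p-value, and scores are used only to rank or describe peaks within the day 4 list. Shares are given with 95% Wilson intervals where stated, and these cover counting over genes or windows only.

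A few sequences show what lies under peaks at the start of genes. Of 368 start-site windows, in 342 protein-coding genes, a day 4 peak of at most 1000 bp lay over the first 50 transcribed bases. GGACT, the DNA form of a common m6A motif, occurred on the transcribed strand in 34 of these windows, or 9.24% (interval 6.69 to 12.6%). It occurred in 4.84% of 6757 windows of genes whose day 4 peaks lay elsewhere, and in 5.86% of all 21263 windows examined. On the opposite strand, read as AGTCC, the shares were 4.62%, 5.30% and 5.02% in the same order of windows, so the higher share under peaks stood on the transcribed strand. The letters GC made up 60.8% of bases under start-site peaks, 66.0% in windows of genes with peaks elsewhere and 60.1% of all windows. An A as the first transcribed base was found in 33.7% of windows under peaks, 27.0% of windows of genes with peaks elsewhere and 37.4% of all windows. A motif match describes letters in a window and does not show that a base is methylated.

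In 18 of the named genes examined for printing, the motif lay inside both the first 50 bases and the peak. The 5 of these whose peaks were in the top 10% of day 4 scores, and 2 immediate-response genes with the motif within 7 bases of the start, are printed to show the motif in place. They were chosen after their values were seen. The sequences are RefSeq start-site windows of GRCm38.p6, 5′ to 3′ on the gene's strand, with GGACT in capitals.
Abca12, chr1:71414861-71414890 (-): tctctctggagtgtGGACTtcgcacaagag
Fbf1, chr11:116168135-116168164 (-): ggctgcgaggtgGGACTgtcgccggcggag
Ptpra, chr2:130450298-130450327 (+): tgcggcgagtgaggcgctgacagGGACTcg
Myof, chr19:38043535-38043564 (-): gtgggcctgcgtGGACTccgggagggagtg
Ikbke, chr1:131279521-131279550 (-): gttaagagcctgGGACTgggtaccccactg
Dusp1, chr17:26508443-26508472 (-): agtgaaGGACTggcgggaggaaagcgcggt
Cxcl1, chr5:90891245-90891274 (+): aacaGGACTcagagcctctaaccagttcca

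Abca12 encodes the transporter that loads lipid into the lamellar granules of the epidermal barrier. It had 2 day 4 peaks at opposite ends of a gene of 171821 bp. The start-site peak (chr1:71414662-71414910) scored 173, with the motif beginning at base 35 of the transcript, and the other (chr1:71243140-71243289) ended 50 bp from the 3′ end and scored 104. Nothing was listed between them at day 4. At day 0 Abca12 had 5 peaks, and its expression was lower at day 4 (log2 fold change -1.77, SE 0.14, in the authors' deposited table). Fbf1, a centriole protein, had a start-site peak that scored 130, and Ptpra, a receptor tyrosine phosphatase, had one that scored 118. Myof, the membrane repair protein myoferlin, had one that scored 115, and Ikbke, a kinase of innate immune signalling, had one that scored 109. The peaks of Dusp1, a MAP kinase phosphatase, and Cxcl1, a neutrophil-attracting chemokine, scored 13.4 and 9.61, so the motif also lay under peaks of low score.

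Some day 4 peaks covered microRNA hairpins inside the host transcript. Of 1005 RefSeq hairpins examined, 8 were overlapped by a day 4 peak of at most 1000 bp on the same strand, in 7 host genes, and 4 lay wholly inside the peak. Their 13 mature miRNAs had 13 different seeds, so no seed was shared. The mature sequences in Prmt2, which encodes an arginine methyltransferase, and in Dgcr8, which encodes the RNA-binding partner of Drosha in microRNA processing, are printed with the seed (bases 2 to 8) in capitals, because one holds the motif and the others sit in a microRNA-processing gene.
mmu-miR-678: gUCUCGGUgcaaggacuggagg
mmu-miR-1306-5p: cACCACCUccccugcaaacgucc
mmu-miR-1306-3p: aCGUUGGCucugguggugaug
mmu-miR-3618-5p: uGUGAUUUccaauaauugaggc
mmu-miR-3618-3p: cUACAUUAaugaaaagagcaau

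The Prmt2 peak (chr10:76207276-76207425) scored 203 and held all 84 bases of the Mir678 hairpin, which has GGACU in 2 places, one of them at bases 13 to 17 of the mature form. It was the 1 hairpin of the 8 with that motif. In Dgcr8 a peak (chr16:18284166-18284315) that scored 30.6 held 97.5% of the Mir1306 hairpin, and a neighbouring peak (chr16:18284365-18284613) that scored 41.7 held 72.7% of the hairpin of miR-3618. The remaining 5 hairpins lay in peaks of Chpf2 (score 9.02), Akt1s1 (10.3), Atp5b (2.46), Pde4dip (34.4) and Scd2 (13.8). Reads of the host mRNA and of the precursor cannot be told apart here.

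The 18423 peaks were listed under 6945 gene names, of which 6925 matched a RefSeq symbol. Protein-coding genes held 18169 peaks (98.6%), long noncoding RNA genes 130 and pseudogenes 68, and 14 peaks were listed under a pair of names with the same coordinates. Of 21900 RefSeq protein-coding genes, 6847 had a day 4 peak, a background of 31.3%. At day 0 the background was 33.2%.

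Most methylated genes carried few peaks, and a minority carried a large part of the list. The median gene with a peak had 2 peaks (mean 2.65). A single peak was listed for 2264 genes (32.6%). At the other end, 929 genes (13.4%) had 5 or more and held 33.0% of all peaks, and 76 genes had 10 or more. Over all RefSeq protein-coding genes, 5 or more peaks were found in 4.2%. The 13.4% at day 4 stood against 14.6% of genes with a peak at day 0. Joining peaks of a gene that lay within 100 bp of each other lowered the day 4 share with 5 or more to 6.42%, so part of the high counts came from closely spaced peaks.

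**Figure D1:**
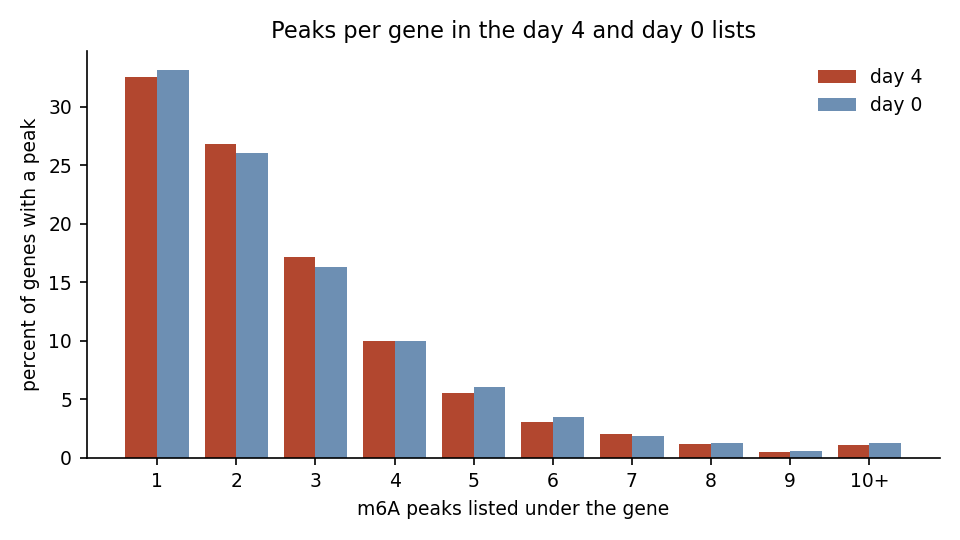
Percent of genes with a peak (y axis) by the number of peaks listed under the gene (x axis, with 10 or more in the last place), for the day 4 list (6945 genes) and the day 0 list (7379 genes). A single peak was the most frequent count, 32.6% of genes at day 4 and 33.1% at day 0, and the shares fall steeply with each added peak.

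Peak spans were short as a rule, with a long tail. The median of the spans was 150 bp at day 4, against 198 bp at day 0, and 5570 day 4 peaks (30.2%) spanned exactly 50 bp. Spans are genomic and include any introns between the ends of a peak, and 12.2% of peaks spanned more than 1000 bp. The widest included those of Auts2 (516518 bp, chr5:131533841-132050358), Ext1 (237424 bp), Arl15 (187704 bp) and Igf1r (161037 bp). These are large genes, and Igf1r encodes the IGF-1 receptor and Ext1 a heparan sulfate polymerase. Such values cannot be read as lengths of methylated RNA.

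Scores ran from 0.899 to 2513, with a median of 17.1, quartiles of 7.998 and 43.2, and a 90th percentile of 107. The top 10% of scores, called strong below, were 1843 peaks in 1505 genes. Just under the limit stood peaks of Rptor (107.088) and Ptp4a1 (107.122), and just inside it Pigk (107.143) and Rps6ka5 (107.308). Strong peaks were found in 6.83% of RefSeq protein-coding genes. Most p-values were small, with 17466 peaks under 1e-5 and 83 listed at 0. However, 18 peaks in 16 genes had an unadjusted p above 0.05, and 13 of these spanned exactly 50 bp. They included peaks of Krt6a (score 0.936), Junb (1.11 and 0.899), Myc (0.980) and Ahnak (0.960), all near a score of 1. Each of those genes also had other peaks with a smaller p, and the number of genes with a peak stayed at 6945 without the 18.

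Day 4 peaks gathered towards the 3′ end of genes. Among 18131 peaks inside the RefSeq span of their protein-coding gene (99.8% of such peaks), 31.2% lay within 1000 bp of the 3′ end and 11.2% within 1000 bp of the 5′ end. Relative to gene span, 48.5% of peak midpoints lay in the last 10% of the gene and 8.17% in the first 10%. RefSeq spans here carry no exons, so stop codons and untranslated regions were not located.

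**Figure D2:**
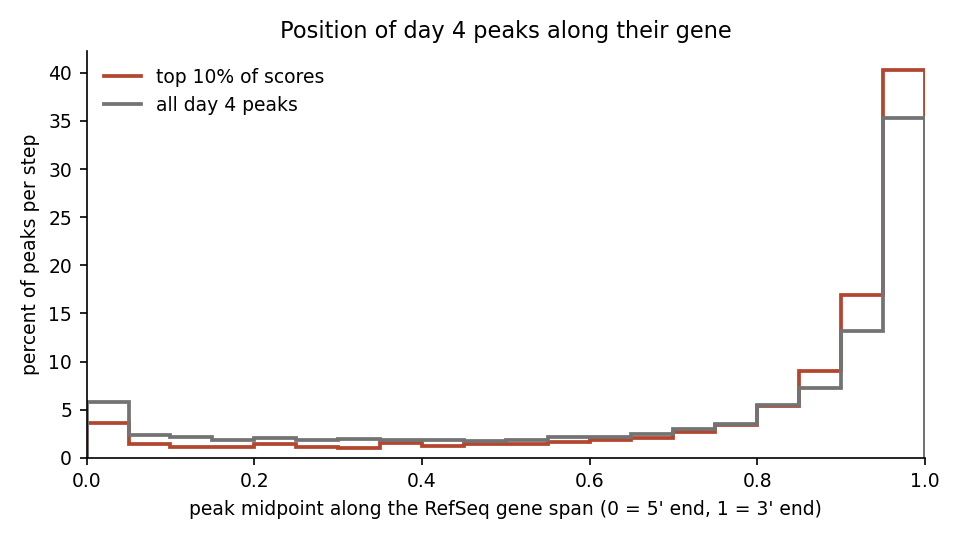
Percent of day 4 peaks (y axis) by the place of the peak midpoint along the RefSeq gene span (x axis, 0 at the 5′ end and 1 at the 3′ end, in 20 equal steps), for the top 10% of scores and for all peaks. The last step holds 40.3% of the strong peaks and 35.3% of all peaks, and a smaller rise stands at the 5′ end, where the first step holds 3.67% and 5.75%.

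The 3′ skew differed with the number of peaks in a gene. Of peaks that were alone in their gene, 47.4% lay within 1000 bp of the 3′ end. In genes with 2 to 4 peaks the share was 35.9%, and in genes with 5 or more it was 17.5%. The median distance to the 3′ end was 1139 bp for lone peaks, 1843 bp in genes with 2 to 4 peaks and 4521 bp in genes with 5 or more. Separate peaks of a gene cannot all lie at its end, and genes with 5 or more peaks had longer spans. These distances therefore cannot show that lone peaks favour the end. Relative to gene span the shares differed less. The last 10% of the gene held 56.0% of lone peaks, 49.3% in genes with 2 to 4 peaks and 44.2% in genes with 5 or more. Lone peaks also scored higher, with a median of 42.4, against 17.7 in genes with 2 to 4 peaks and 12.6 in genes with 5 or more.

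Strong peaks lay somewhat farther from the end in bases but closer in relative terms. Of strong peaks, 22.1% lay within 1000 bp of the 3′ end and 57.3% in the last 10% of the span, against 32.3% and 47.5% of the other peaks. In the 4604 genes with 2 or more placed peaks, the strongest was the one nearest the 3′ end in 37.1% (interval 35.7 to 38.5%) and the one nearest the 5′ end in 35.3%. If any peak of a gene were equally often the strongest, each share would be 35.3%. Within a gene, therefore, the highest score stood at the 3′-most peak only slightly more often than at the others. It did so in 52.6% of genes with 2 peaks, 34.2% with 3, 25.5% with 4 and 18.9% with 5 or more. Equal shares would be 50%, 33.3%, 25% and 16.5%. With 3 and 4 peaks the 5′-most peak was slightly ahead (34.7% and 26.9%).

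The list followed transcript abundance closely. The authors' deposited table of expression gives a mean normalized count over both days for the 7978 genes whose expression differed between days at an adjusted p under 0.05, so the level of other genes is not known here. In 5 equal groups of these genes by that level, the share with a day 4 peak was 4.20%, 38.6%, 64.2%, 78.8% and 92.2% from low to high. The share with 5 or more peaks was 0%, 0.439%, 3.45%, 8.59% and 21.6%. The share with a strong peak was 1.19%, 9.97%, 13.6%, 17.1% and 14.7%, so it did not keep climbing. Across the 4435 genes of the table with a peak, Spearman's rho of level with the number of peaks was 0.40, and with the highest score it was -0.11. Across 6847 protein-coding genes with a peak, rho of gene span with the number of peaks was 0.24. These correlations are across genes, which share libraries and depth and are not replicates. A gene without a listed peak may therefore be unmethylated or too low to call.

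**Figure D3:**
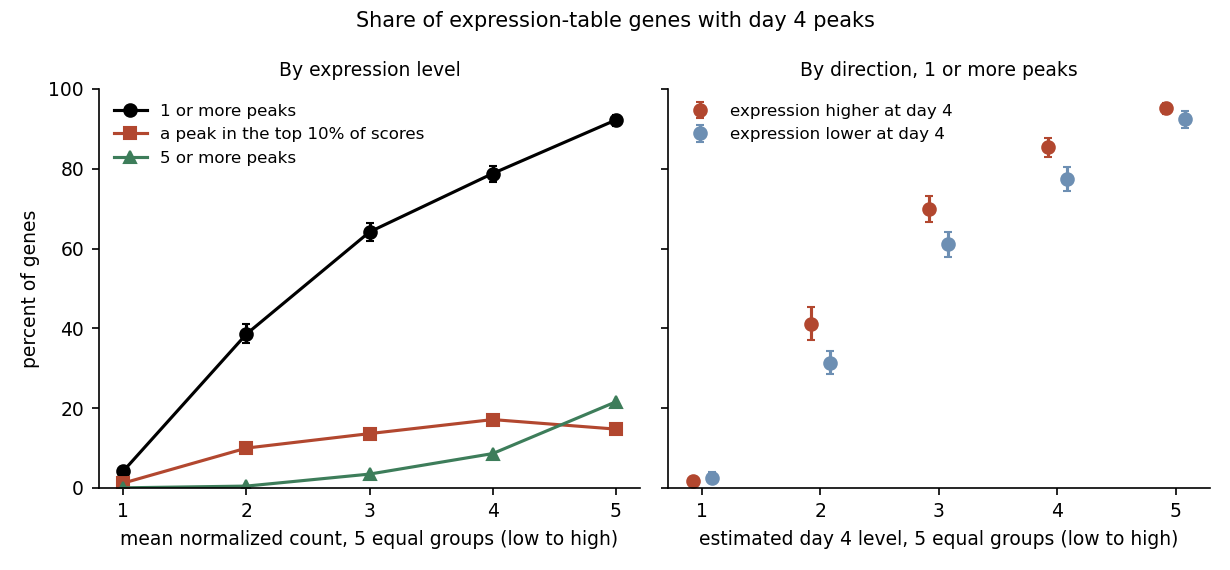
Percent of genes of the expression table with day 4 peaks (y axis), on the left in 5 equal groups of mean normalized count and on the right in 5 equal groups of estimated day 4 level, split by expression higher or lower at day 4. Bars are 95% Wilson intervals of the share with 1 or more peaks. The share with a peak climbs from 4.20% to 92.2% over the level groups on the left, and on the right the genes higher at day 4 stand above those lower at day 4 in every group except the lowest.

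The 12 genes with the most day 4 peaks had between 14 and 35 each. Ahnak, a very large scaffold protein beneath the plasma membrane, had 35. Dst, which encodes the dystonin that ties keratin to hemidesmosomes, had 26. Wnk1, a kinase that controls ion transport, had 21, and Srrm2, a scaffold of nuclear speckles, had 18. Plec, the plectin cytolinker, and Kmt2a, a histone H3 lysine 4 methyltransferase, had 16 each. Fat1, a giant cadherin, Malat1, a nuclear long noncoding RNA, and Eppk1, the keratin-binding epiplakin, had 15 each. Macf1, a linker of actin and microtubules, Mga, a MAX partner, and Prr14l had 14 each. Compared with day 0, the count at day 4 was lower in 7 of the 12, such as Fat1 (15 at day 4, 20 at day 0) and Dst (26 at day 4, 30 at day 0). It was higher in 4, such as Srrm2 (18 at day 4, 14 at day 0) and Eppk1 (15 at day 4, 11 at day 0).

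Many peaks did not mean strong peaks. Of the 219 peaks in those 12 genes, 4 were strong, 3 of them in Macf1 and 1 in Wnk1. The 35 peaks of Ahnak fell in one stretch of 19123 bp (chr19:8999666-9018788) of a gene that spans 87652 bp, with scores from 0.960 to 11.98 and a median of 2.57, and 9 spanned exactly 50 bp. The 18 peaks of Srrm2 fell in 9418 bp of its 34215 bp, with a median score of 2.74. Dst instead had peaks in separated blocks over 130108 bp, with scores from 4.99 to 104 and a median of 15.2, and 13 of them spanned exactly 50 bp. The 16 peaks of Kmt2a lay over 45347 bp with a median score of 11.2. Macf1 had the highest median of the 12, 57.3, while the highest single score was in Wnk1 (203, against 140 in Macf1). The median RefSeq span was 50608 bp for protein-coding genes with 5 or more peaks and 23470 bp for those with any peak.

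The 10 highest scores lay in genes with 1 to 3 peaks. Herc2, a giant ubiquitin ligase, had the highest (2513, 550 bp, chr7:56230899-56231448, 352 bp from the 3′ end of the gene), beside a peak of 46.7. Arf2, a small GTPase of membrane traffic, followed with 1848 over 100 bp near its 5′ end, and Disp1, which releases Hedgehog ligand, with 1644 over 100 bp near its 3′ end. Pde4b, a cAMP phosphodiesterase, had 1149, Phip 1132, and Atp13a2, a lysosomal transporter, 1106 in a peak just past the end of its RefSeq span. Arl5a had 1088, Stag2, a cohesin subunit, 1023 within 115 bp of its 5′ end, Impad1, a Golgi phosphatase, 985, and Slc35e1 985. Of these 10 peaks, 4 were the only peak of their gene, and 8 overlapped a day 0 peak, those of Arf2 and Atp13a2 being the exceptions.

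Higher scores went with lower gene level and wider spans. In the top 10% of scores the median mean normalized count of the gene in the authors' deposited table was 848, against 2623 in the lowest 10%. The median span was 300 bp in the top 10% and 50 bp in the lowest, and 11.01% and 53.1% of these peaks spanned exactly 50 bp. In addition, 49.97% of scores in the top 10% equalled a fraction with a denominator of at most 100 (relative tolerance 1e-11), against 9.55% in the lowest 10%. The scores of Arf2, Disp1 and Atp13a2 were whole numbers. How the authors made a score is unstated, and the part of small values in the ranking was not tested.

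**Figure D4:**
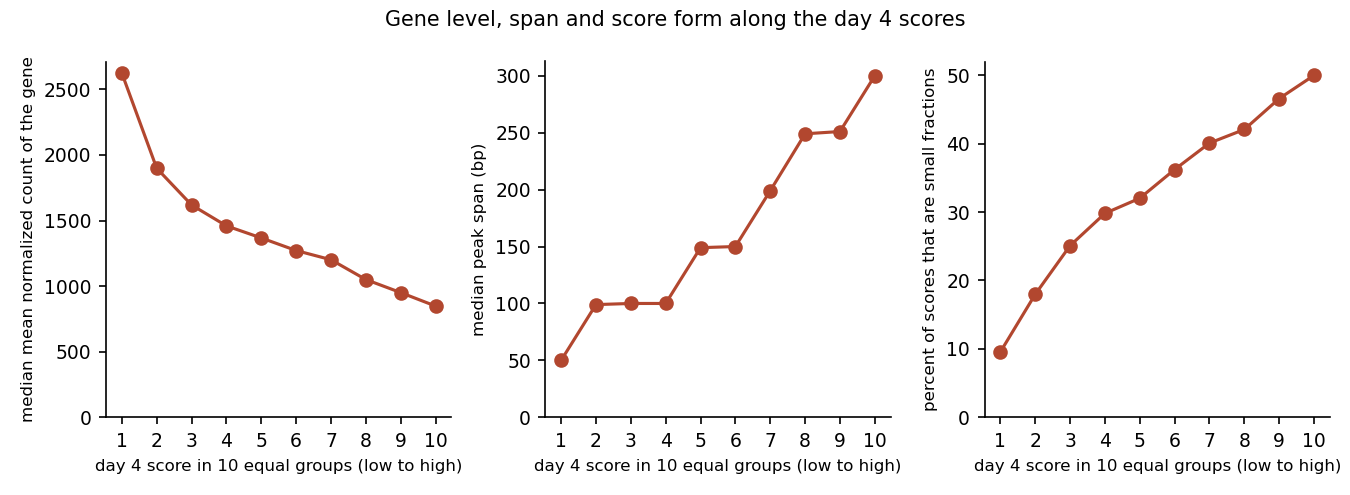
Day 4 peaks in 10 equal groups of score from low to high (x axes), with the median mean normalized count of their genes (left), the median span in bp (middle) and the percent of scores that equal a fraction with a denominator of at most 100 (right). Along the scores the level goes down to 848 in the top group, against 2623 in the lowest, the span goes up to 300 bp, against 50 bp, and the percent of small fractions to 49.97, against 9.55.

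Gene classes were set beside a pair of backgrounds: all RefSeq protein-coding genes, and the 6267 protein-coding genes of the expression table with 100 or more mean normalized counts, called the expressed genes below. Among the expressed genes, 69% had a day 4 peak, 8.58% had 5 or more, 14.1% had a strong peak and 31% had none, while 73.6% had a day 0 peak. Of 33 classes with at least 10 expressed members, 25 lay above 69% for any peak, 18 above 8.58% for 5 or more and 16 above 14.1% for a strong peak. Counts below are of all RefSeq members of a class unless expressed members are named, and the matching shares over all RefSeq protein-coding genes are 31.3% for any peak, 4.2% for 5 or more and 6.83% for a strong one. No class was tested against the others, and level and gene length move with several of them. Direction of expression does too. Among listed genes with 100 or more mean normalized counts, 80.3% of those higher at day 4 had a peak, against 57.9% of those lower.

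**Figure D5:**
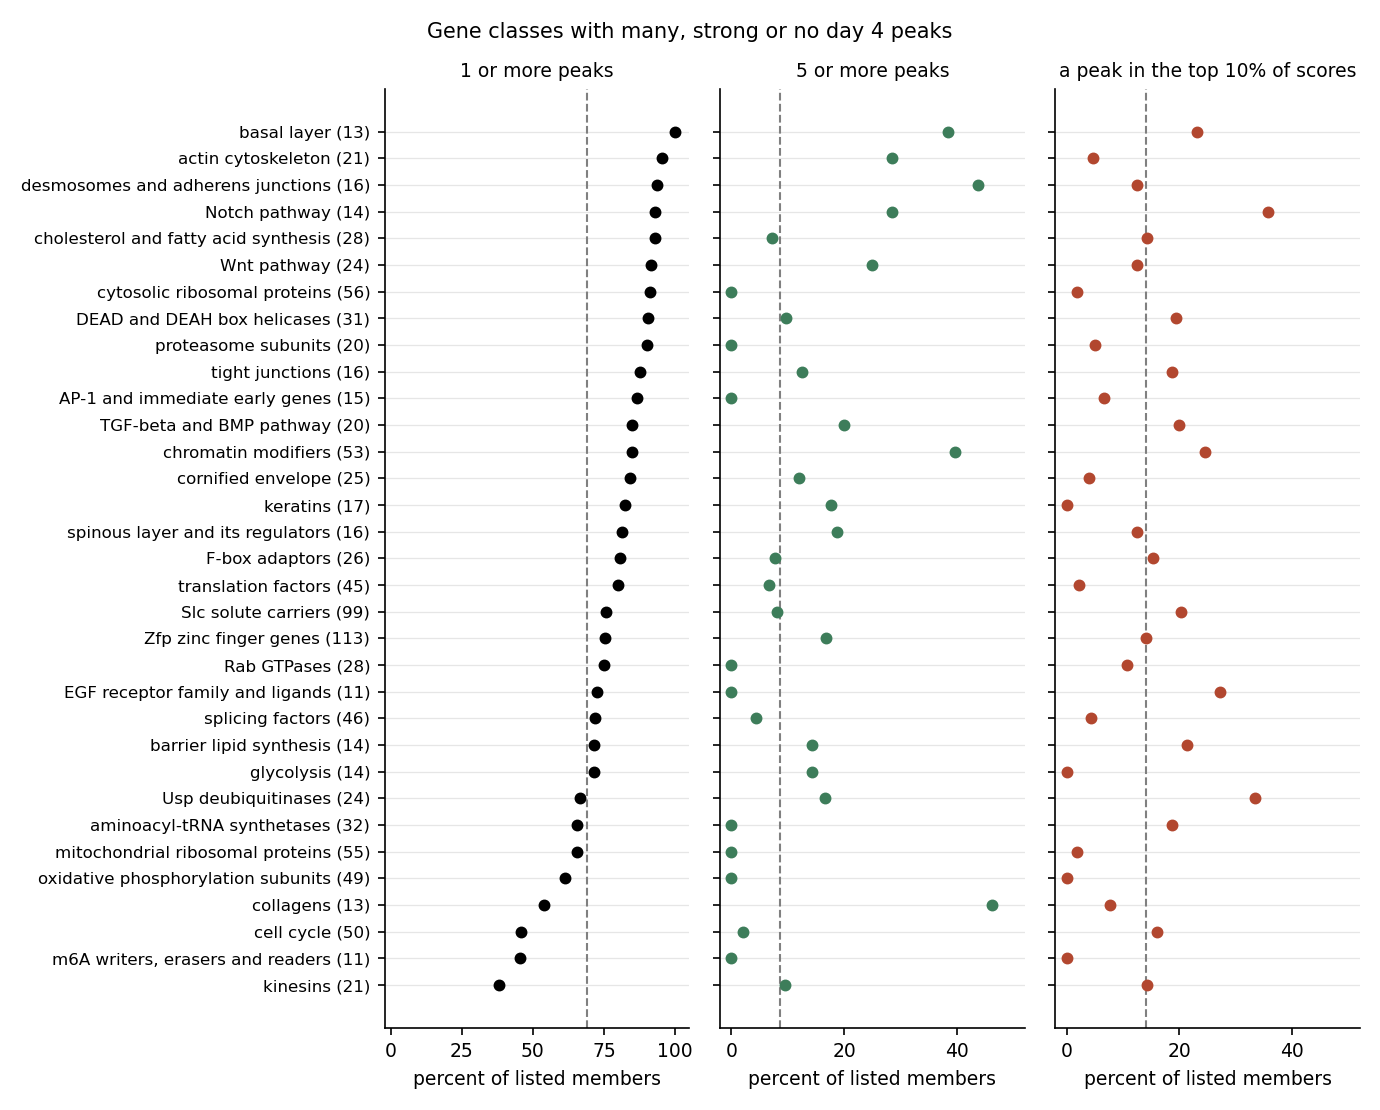
Percent of expressed members (x axes) with a day 4 peak (left), with 5 or more (middle) and with a peak in the top 10% of scores (right) for 33 gene classes, with the number of expressed members in brackets and the share over all 6267 expressed genes as a dashed line (69%, 8.58% and 14.1%). Chromatin modifiers, desmosome and adherens junction genes, basal genes and collagens stand far right in the middle panel. Tight junction genes stand at 12.5% there, and cytosolic and mitochondrial ribosomal proteins at 0.

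Chromatin modifiers had many peaks per gene. Of 118 genes for lysine methyltransferases, demethylases, acetyltransferases, deacetylases and remodellers, 96 had a day 4 peak, 50 had 5 or more and 36 had a strong one, with 481 peaks in all. Among the 53 expressed members, 39.6% had 5 or more. Kmt2a led with 16, followed by Kmt2c and Kmt2d, which encode related histone methyltransferases, with 13 each, and Kat6b, an acetyltransferase, with 12. The highest score was in Kat2a, another acetyltransferase (494, its only peak). Smarca2, a SWI/SNF ATPase, had no day 4 peak and 7 at day 0. The median gene span of the class was 62223 bp, against 17146 bp over all protein-coding genes.

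Other gene regulators varied. Of 397 Zfp zinc finger genes, 158 had a peak (39.8%, against 31.3% of all genes) and 35 had 5 or more (8.82%, against 4.2%). Among the 113 expressed members 75.2% had a peak. Zfp322a had 9 peaks at day 4, against 2 at day 0, and Zfp91 had the class's highest score (605). Of 50 Usp deubiquitinases, 31 had a peak and 16 had a strong one (33.3% of expressed members), among them Usp34 (392). Of 78 F-box genes, which encode substrate adaptors of ubiquitin ligases, 34 had a peak, and Fbxo11 had the highest score (481). Of 17 Klf factors, 9 had a peak, and Klf4, a regulator of the epidermal barrier, had 6 with none above 17.7.

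In the housekeeping classes most members had a peak, but no member had 5 or more and few had a strong one. Of 87 cytosolic ribosomal protein genes, 71 had a day 4 peak, none had 5 or more, and 1 had a strong peak, Rps12 (532). Their 106 peaks had a median score of 9.75 and 73.3% lay within 1000 bp of the 3′ end, in genes whose median span was 3164 bp. The median level of the 56 expressed members was 4968 in the authors' deposited table, and in the top level group of all listed genes 21.6% had 5 or more peaks and 14.7% a strong one. Of 77 mitochondrial ribosomal protein genes, 51 had a peak (65.5% of expressed members), none had 5 or more and 2 had a strong one, the highest in Mrps28 (203). Of 82 genes for oxidative phosphorylation subunits, 48 had a peak (61.2% of expressed members, against 69% of expressed genes), with none at 5 or more and none strong, and a highest score of 50.2 in Sdhc, a subunit of succinate dehydrogenase. Of these 82, 41 were lower and 10 higher at day 4, against 26.4% and 27.1% of 14924 genes tested. Among lower genes with 100 or more mean normalized counts, 57.9% had a peak. Of 48 proteasome genes, 36 had a peak, none had 5 or more and 2 had a strong one, the highest in Psmd5 (180).

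Classes of the translation and RNA machinery, and the Rab GTPases of membrane traffic, differed in both counts and scores. Of 37 aminoacyl-tRNA synthetase genes, 24 had a peak and none had 5 or more, but 7 had a strong one, led by Fars2 (330). Of 59 Rab GTPase genes, 30 had a peak, none had 5 or more and 3 had a strong one. Of 71 translation factor genes, 50 had a peak, 6 had 5 or more and 1 had a strong peak, Eif2ak3, an eIF2 kinase of the unfolded protein response (109). Of 69 splicing factor genes, 47 had a peak, 5 had 5 or more and 3 had a strong one. Of 53 DEAD and DEAH box helicase genes, 42 had a peak, 6 had 5 or more and 12 a strong one, with Ddx55 at 487.

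Transporters and structural classes had a mixed record. Of 371 Slc solute carrier genes, 112 had a peak (30.2%, against 31.3% of all genes) and 30 a strong one (8.09%, against 6.83%), so the class stood near that background. Among its 99 expressed members 75.8% had a peak, against 69% of expressed genes. A strong one was found in 20.2% of these members, against 14.1%. Of 44 collagen genes, 7 had a peak, and 6 of these had 5 or more, with Col7a1, the anchoring fibril collagen made by keratinocytes, at 11 and Col4a2, of the basement membrane, at 10. Of 26 integrin genes, 8 had a peak and 4 a strong one, led by Itgb5 (300.5). Of 38 kinesin genes, 13 had a peak, and 12 others had a peak at day 0 only. None of 1110 olfactory receptor genes, which encode the odour receptors of the nose, had a day 4 peak.

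Genes of the basal layer, the dividing compartment attached to the basement membrane, were well covered at day 4. Of 17 members, 15 had a peak, 5 had 5 or more and 4 had a strong one. Dst led, and Cd44, a hyaluronan receptor, and Col17a1, a hemidesmosome collagen, had 6 each. Itga3, the laminin-binding integrin chain, had the highest score (249). Itga2 had no peak.

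Desmosome and adherens junction genes had many peaks, of modest median score. Of 20 such genes, 18 had a peak and 10 had 5 or more, with a median score of 7.46. A strong peak was found in 3 of them (15%, against 6.83% of all genes). Jup (plakoglobin) had 10, and Dsc2 and Dsc3 (desmocollins) and Ctnnd1 (p120 catenin) had 8 each. Cdh3, which encodes P-cadherin, had the highest score (131). Dsp, the desmoplakin that anchors keratin at desmosomes, had 7, of which one (chr13:38195830-38196279) scored 109 and the other 6 between 1.48 and 4.59, so its highest score stood in a single 450 bp region of the 6404 bp that its peaks span in sum. Dsg1a had no peak at day 4 and 1 at day 0. Of 20 tight junction genes, 17 had a peak, 4 had 5 or more and 3 a strong one (15%), with a median score of 13.1. Cldn1, the claudin needed for the skin water barrier, had the highest score of these (470 over 549 bp).

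Keratins were covered at high level and low score. Of 53 keratin genes, 14 had a day 4 peak, all of them among the 17 expressed, and their 53 peaks, against 36 at day 0, had a median score of 4.24 and no strong member. Krt5, the basal type II keratin, had 5 peaks (7.18, 1.48, 3.47, 1.13 and 3.69 from the 3′ end on), with a mean normalized count of 196003 in the authors' deposited table. Its partner Krt14 had 4 (3.64, 1.16, 1.94 and 5.06 from the 3′ end on), with a mean normalized count of 209477 in that authors' deposited table. In both, 1 peak lay within 51 bp of the 3′ end and another within 14 bp of the 5′ end. Krt6b had 7 and Krt6a 6, both keratins of stressed and activated epidermis, and Krt18, a keratin of simple epithelia, had the highest score (23.1). Krt10, the spinous layer keratin, had no peak on either day, with a mean normalized count of 903 in the authors' deposited table.

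The spinous layer and its regulators had peaks in 16 of 21 genes. Notch2 had 10, Notch1 had 7 and Klf4 had 6. The strongest peak was in Notch1 (chr2:26458152-26458900), which scored 430 and ended 250 bp from the 3′ end of the gene. The other 6 of Notch1 scored from 6.85 to 109. Krt10 and the transcription factors Cebpb and Maf had none.

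Cornified envelope genes and the epidermal differentiation complex, a cluster of short barrier genes, were split by level. Of 58 members, 22 had a peak, but of the 25 expressed members 21 did (84.0%). Evpl, the envelope protein envoplakin, had 8, Dmkn and Sbsn, a pair of secreted epidermal proteins, had 5 each, and Tgm1, the crosslinking transglutaminase, had 4. The single strong peak was in Tgm5 (114). The list's median score was 4.98 and 59.6% of its placed peaks lay within 1000 bp of the 3′ end, in genes of 1814 bp median span. S100a6, Sprr2i and Sprr2b had none. Ivl, the envelope protein involucrin, had 3 (5.09, 2.12 and 3.83), and its expression was higher at day 4 by 3.67 on the log2 scale in the authors' deposited table (SE 0.12). The class did not share that direction, with 20 of the 58 members higher and 24 lower at day 4. Over all 14924 genes tested, 27.1% were higher and 26.4% lower.

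Barrier lipid synthesis had peaks in 13 of 28 genes. Slc27a4, a fatty acid transporter, had 6, Degs1, a ceramide desaturase, had 5, and Cers3, the ceramide synthase of skin, had 4. Sptlc1, a subunit of serine palmitoyltransferase, had 3, its highest at 116. The highest score of the list was in Abca12 (173). Aloxe3, Elovl7 and Ugcg had none at day 4, of which Aloxe3, an epidermal lipoxygenase, had 1 at day 0. Cholesterol and fatty acid synthesis was covered more fully, with peaks in 28 of 32 genes and 84 peaks, against 58 in 20 genes at day 0. Scd2, a stearoyl desaturase, had 9 and Fasn, fatty acid synthase, 6, while Acaca, acetyl-CoA carboxylase, had the highest score (337). Fdft1 and Idi1, both enzymes of sterol synthesis, had none. Expression was higher at day 4 for 27 of these 32 and lower for 1, by the authors' deposited table. The shares over all 14924 genes tested were 27.1% higher and 26.4% lower.

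Signalling pathways that steer keratinocyte fate had peaks in most members. In the Notch pathway, 22 of 30 genes had a peak, 7 had 5 or more and 10 had a strong one, and Spen, a corepressor of its transcription complex, had 14. Lfng, which tunes Notch receptors by glycosylation, had none. In the Wnt pathway, 29 of 39 had a peak and 8 had 5 or more, against 22 with a peak at day 0. Apc, the scaffold of beta-catenin destruction, had 12, Lrp6, a Wnt co-receptor, 10, and Ctnnb1, beta-catenin itself, 6. Znrf3, a ligase that removes Wnt receptors, had 6 and the list's highest score (269). Porcn, Dvl2 and Axin2 had none.

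In the TGF-beta and BMP pathway, 29 of 40 had a peak and 10 had a strong one. Smad3, a signal transducer, had 9, Smurf1, a ligase, 7, and Acvr2a, an activin receptor, had 1 that scored 747 over 1534 bp. Ltbp4, Fst and Tgfbr3 had none. The list of EGF family receptors and ligands also holds other genes, such as Sos1, Grb2, Shc1 and Errfi1. Its genes had few but strong peaks: 14 of 22 had a peak, none had 5 or more and 8 had a strong one. The highest score was in Sos1 (478). Egfr had 4 (highest 312) at day 4 and 1 at day 0, Erbb2 had 3 (382), and the ligands Tgfa and Hbegf had 3 each (270 and 130). The ligands Nrg2, Ereg and Areg had none. AP-1 and immediate early genes had peaks in 24 of 33, with none at 5 or more and 2 with a strong one. That strong share, 6.06%, was near the 6.83% of all genes.

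Cell cycle genes had fewer peaks at day 4 than at day 0. Of 55 members, 24 had a peak at day 4 and 42 at day 0, with 49 and 135 peaks, and 18 had one at day 0 only. Over all genes, 7379 had a day 0 peak and 1041 had one at day 0 only. Expression was lower at day 4 for 48 of the 55 and higher for 4, by the authors' deposited table. Over all 14924 genes tested, 26.4% were lower and 27.1% higher. Mki67, the proliferation marker, had 4 peaks at day 4 and 19 at day 0. Mcm2 and Mcm4, subunits of the replicative helicase, had none at day 4, and 4 and 2 at day 0. Ccnd2, a D-type cyclin, went against this with 7 at day 4 and 4 at day 0, and E2f3, a cell cycle transcription factor, had the highest score (498). Fewer cells in cycle, less RNA per cell and fewer methylated sites cannot be told apart in bulk RNA.

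The m6A machinery itself carried peaks in 17 of 23 genes at day 4, with 43 peaks, against 60 in 19 genes at day 0. Among writers, Virma had 5, Zc3h13 and Rbm15b 4 each, Wtap 3 (highest 123), Cbll1 2 (192), and Rbm15 and Mettl16 1 each. Mettl3, the catalytic subunit, had none on either day, and Mettl14, its partner, had none at day 4 and 3 at day 0. Mettl5, which methylates ribosomal RNA, also had none. Pcif1, which methylates the adenosine beside the cap, had a single peak that scored 297. The erasers Fto and Alkbh5 had 3 and 2. Among readers, Ythdf1 had 4, Ythdc1 3, Ythdf2 2 and Ythdf3 1 (104), while Ythdc2 had none. Igf2bp2 had 4, and Igf2bp1 and Igf2bp3 had none. Hnrnpa2b1 had 2 and Hnrnpc 1. In the authors' deposited table the 11 listed members were all lower at day 4, against 26.4% of 14924 genes tested. Of these 11, all with 100 or more mean normalized counts, 5 had a day 4 peak (45.5%). The share was 69% of expressed genes, and 57.9% of listed genes at that level that were lower at day 4. For the whole class, 17 of 23 is 73.9%, against 31.3% of all genes.

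Long noncoding RNAs had peaks in 9 of 34 listed genes. Malat1 had 15 over nearly all of its 6983 bp, with scores from 1.13 to 28.9. Neat1, the scaffold of paraspeckles, had 13 at day 4 and 5 at day 0, with scores from 5.09 to 101.97, and its expression was higher at day 4 by 0.90 on the log2 scale in the authors' deposited table (SE 0.12). Tug1 had 8 and Firre 4. Pvt1, a long noncoding RNA beside Myc, had none at day 4 and 1 at day 0, and was lower by 0.91 on the log2 scale (log2 fold change -0.91, SE 0.18) in the authors' deposited table. Myc, the growth regulator, had 4 at day 4 and 3 at day 0. The strongest Myc peak (chr15:61989512-61990211) scored 22.1 and ended 150 bp from the 3′ end, and the others scored 2.67, 1.63 and 0.980.

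Some abundant transcripts had no day 4 peak at all. By the level in the authors' deposited table, 1944 of 6267 genes with 100 or more mean normalized counts had none (31.0%), as did 273 of 2463 at 1000 or more (11.1%), 66 of 1157 at 2000 or more (5.70%) and 10 of 325 at 5000 or more (3.08%). The 12 most abundant, predicted genes left out, were Rps3 (27214 mean normalized counts), S100a6 (18553), Gnas (11611), Lama5 (9104), Atp13a3 (8325), Mprip (7531), Caprin1 (7288), Rcc2 (5857), Rpl37 (5001), Eef1d (4670), Serinc3 (4564) and Gltp (4271) in the authors' deposited table. Rps3 and Rpl37 are ribosomal proteins, S100a6 a calcium-binding protein, Gnas a G protein subunit and Lama5 a laminin chain. No peak of any gene name lay in the span of these 12 genes at day 4. At day 0 a peak lay in 4 of them, Rps3 (2), Rcc2 (3), Eef1d (1) and Gltp (2). The other 8 had none on either day.

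Genes higher at day 4 carried a day 4 peak more often than genes lower at day 4. The header does not state the direction of the fold change; it was read as day 4 over day 0 because 465 of 496 listed genes with a peak at day 4 only had a positive value, against 32 of 793 with a peak at day 0 only. Of 14924 genes tested, the authors' deposited table calls 27.1% higher and 26.4% lower at day 4. A day 4 peak was listed for 60.3% of the 4040 higher genes (interval 58.8 to 61.8%) and 50.8% of the 3938 lower genes (interval 49.2 to 52.3%). For 5 or more peaks the shares were 8.17% of higher genes and 5.41% of lower genes, and for a strong peak 10.7% of higher genes and 11.99% of lower genes. Since the direction was read with the peaks, this is a description of the list.

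Genes with a high day 4 level more often had a peak, so direction was also set beside level. With genes placed in 5 equal groups by an estimated day 4 level, from the mean and the fold change in the authors' deposited table, the shares of higher and lower genes with a peak were 1.66% and 2.45% in the lowest group. In the next groups they were 41.1% and 31.4%, then 70.0% and 61.1%, then 85.4% and 77.5%, and 95.3% and 92.5% in the highest. The higher genes were ahead in 4 of 5 groups, by 5.70 percentage points on average over the 5. This grouping was added after the data were seen.

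Most day 4 peaks had a counterpart at day 0. On the same strand, 14528 of them (78.9%) overlapped a day 0 peak by at least 1 bp. The share was 91.8% for strong peaks and 60.7% for the lowest 10% of scores. It was 54.0% for peaks of exactly 50 bp and 89.6% for wider ones, so short and low-scoring peaks lacked a counterpart more often, though most of them had one. With overlap counted from 1 bp, a wide span meets a day 0 peak more easily than a short one. The median span was 50 bp in the lowest 10% of scores and 300 bp in the top 10%, so score and width cannot be told apart here. Of the 6945 genes with a day 4 peak, 6332 (91.2%) also had one at day 0, of which 1724 had more peaks at day 4, 1884 fewer and 2724 as many.

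The authors' deposited table of differential methylation calls 4.79% of 36796 tested sites as gains and 2.17% as losses at day 4. Of the day 4 peaks, 1483 (8.05%) overlapped a gain and 880 (4.78%) a loss of that authors' deposited table. Among day 4 peaks without a day 0 counterpart, 13.5% overlapped a gain, against 6.60% of those with one. The site test used the same libraries as the peak lists, so these shares are not independent of them. Col7a1 held 6 gains and Kmt2d 5 in the authors' deposited table.

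The keratinocyte and differentiation markers with a day 4 peak had one at day 0 as well. All 10 keratinocyte markers (among them Trp63 with 2 peaks, Krt5 and Krt14) had a peak on both days. The 9 of them listed in the authors' deposited table had a median of 40540 mean normalized counts. At 5000 or more, 3.08% of genes lacked a day 4 peak, so this coverage says little about cell identity. Of 7 differentiation markers, 4 did, namely Ivl, Tgm1, Krtdap and Sbsn, and the same 4 had a peak at day 0. The authors' deposited table lists 6 of the 7 differentiation markers, with 4 higher and 2 lower at day 4. The lower ones in the authors' deposited table were Tgm1 and Krtdap (log2 fold changes -0.53 and -1.73). The higher ones there were Krt1 (5.10), Krt10 (1.47), Ivl (3.67) and Sbsn (0.19). Of the differentiation markers, Krt1, Krt10 and Lor had no peak, and Krt1 had a mean normalized count of 2.65 in the authors' deposited table. Of 11 fibroblast markers, which the feeder cells could supply, none had a peak on either day, and 4 were listed in the authors' deposited table at 50.9 to 305 mean normalized counts, 3 of them higher at day 4. In a wider list of 18 fibroblast genes, Acta2 (score 70.2) and Fn1 (7.29) had 1 peak each at day 4 and none at day 0. Of 8 melanocyte markers, Mitf alone had peaks (2, against none at day 0), and of 11 immune and endothelial markers, Kdr alone did (4 on each day). The part of other cells in the day 4 list was not tested.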

How the data were processed

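Per the labels' protocols, RNA of 12 libraries was polyadenylated RNA, sonicated, enriched for m6A or kept as input, and made into stranded libraries. HISAT2 2.1.0, DESeq2 1.18.1 and build mm10 are named in the submitters' processing notes; no source used here names the peak caller. Per the file headers, each deposited peak has an enrichment score and an unadjusted p-value. The deposited expression table gives a mean normalized count (a signal), a log2 fold change with its SE and an adjusted p-value, made by the authors and limited to genes under 0.05. The number tested was derived from its adjusted p, rank and p. The deposited methylation table lists sites at a false discovery rate under 0.05 only; its fold, of unstated base, was used for its sign.

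Peaks were taken as deposited, counted by gene name and matched to RefSeq symbols or unique synonyms (GRCm38.p6, the assembly of mm10), whose gene spans and start-site sequences were used. Genes of chromosome 18 were left out when start-site motifs and hairpins were examined for printing, as were predicted genes for the start-site motifs. Distances run from a peak's nearer edge to the end of the span. Estimated day 4 level is mean × 2 × fold / (1 + fold). The 42 gene lists are 20 of symbols and 22 of name patterns, of which replication-dependent histones and mitochondrially encoded genes matched no symbol and have no result. Members, lists and the rule for named genes were chosen with earlier results of these data known. The rule took the 10 highest-scoring and 5 widest peaks, the 12 genes with most peaks, the 12 most abundant without one, Pvt1, Myc, all m6A genes, and from each list up to 4 members with most peaks, the strongest, and up to 3 abundant members without a peak; predicted genes were left out. A few genes that the rule names are not reported here. Cell type markers were a separate list. No test across replicates could be made. Computation used Python 3.11.15, pandas 2.3.3, numpy 2.4.6 and scipy 1.17.1, and overlap and fraction steps were tested on simulated data. Alternatives were stricter peaks, joined peaks, other limits for many, strong and near, other gene filters and a wider overlap.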

Additional observations from a re-analysis of the deposited data

How the results depend on the processing

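No paired analysis was possible because no file has a value per library, although the groups share replicate numbers; for the same reason leaving out each replicate was not run. Summed exon blocks, planned for spans, were not run because none are listed. With only peaks at p under 1e-5 (17466), genes with 5 or more peaks made up 11.7% and the median span was 175 bp. With only peaks at or above the median score (9212), these were 3.15% and 249 bp, 28.5% of peaks lay within 1000 bp of the 3′ end, the highest level group exceeded the lowest by 61.7 percentage points (87.7 with all peaks), and higher genes exceeded lower genes by 2.69 points (9.49 with all peaks). With peaks within 100 bp joined (14925), the values were 6.42%, 247 bp and 32.5%. Counting 3 or more peaks as many gave 40.5% of genes, taking the top 5% as strong gave 810 genes, and 20.8% of peaks lay within 500 bp of the 3′ end. At a mean of at least 100 the difference between higher and lower genes was 22.4 points, within groups of estimated day 4 level 5.70, and an overlap of at least 50% of the day 4 peak was met by 73.3% of peaks. The number of gene classes above the background share of genes with a peak stayed at 31 of 38 under each peak filter and was 25 of 33 among expressed genes. No result changed sign. Of 39 list shares, 15 moved outside their interval with peaks at or above the median score, and 0 with the other peak filters. Depth is unknown, so no limit of detection can be given for a gene without a peak.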
